A study of Mus musculus with 20 samples.

Results

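The step from day 6 (D6) to day 8 (D8) of neural progenitor cell (NPC) differentiation was examined in TKO cells derived from E14 (ES-E14TG2a), an established line of mouse embryonic stem cells. It rests on 4 of the 20 RNA-seq libraries of the series, taken by their labels of genotype and day, which are 2 biological replicates of TKO D8 set against 2 of TKO D6. The same step in WT cells, 2 libraries of WT D8 against 2 of WT D6, was measured alongside it and shares no library with it. In every group, stem cells grown in serum with LIF and no feeders (D0) were replated on laminin in plain N2B27, which holds neither serum nor LIF, and harvested at D2, D4, D6 and D8, and poly(A) RNA was sequenced from stranded libraries. The labels do not say which genes TKO removes or how many clones it stands for, so no targeted gene was available as a check of the labels.

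Mouse embryonic stem cells that lose LIF and serum in N2B27 normally switch off the naive pluripotency network, pass through a formative state marked by Fgf5, Otx2 and Pou3f1, and then take on a neuroectodermal identity with Sox1, Pax6 and Nes. Neural progenitors are held in division by Notch signalling, whose targets include the repressor Hes5, while proneural factors such as Neurog1 and Neurog2 lead cells out of the cycle into neurons that make Tubb3 and Dcx. Loss of Cdh1 and gain of Cdh2 accompany the passage from epithelial stem cells to neural tissue.

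Total estimated counts were 28600089 and 32458441 in the TKO D8 libraries and 33195966 and 27445109 in the TKO D6 libraries, within the series range of 26015282 to 38074768. The 10 genes with most counts took 7.97% and 8.04% of the TKO D8 libraries and 6.92% and 6.77% of the TKO D6 libraries, against at most 6.04% in the other 16. Levels of genes that share many 31-base words with transcripts of other genes are uncertain, because reads of such words cannot be placed. Besides those marked where they appear, the genes named below with at least 10% of words shared are Nanog (10.6%), Tdgf1 (12.6%), Dnmt3b (13.5%), Krt8 (32.3%), Krt5 (12.8%), Etv5 (30.3%), Uhrf1 (24.2%), Rybp (10.8%) and Bmi1 (28.1%). Mitochondrial genes took 2.87% and 2.88% at TKO D8 and 2.64% and 2.65% at TKO D6. Levels are CPM, counts per 1000000 after TMM scaling, and changes are log2 fold changes with their standard error (SE) from edgeR's quasi-likelihood test, with Benjamini-Hochberg adjusted p-values over 18555 genes and a threshold of 0.05. Means are given ± SD over 2 libraries. The labels call the replicates biological without saying whether cultures were started separately, so p-values measure the spread between these libraries. In bulk RNA, fewer cells of a type and less RNA per cell cannot be told apart.

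Of the 18555 genes tested, 9278 passed between TKO D8 and TKO D6. Of these, 4726 were higher at D8, 25.5% of the genes tested, and 4552 were lower, 24.5%. Changes of at least 2-fold were more often upward, with 1790 genes higher and 748 lower, and the median log2 change of all genes was 0.04. Among those with 5 CPM or more on the day of the higher level, 709 were higher and 471 lower. In WT cells 10571 genes passed, 4935 higher (26.6%) and 5636 lower (30.4%). There too changes of at least 2-fold were more often upward, with 2689 genes higher and 928 lower. The change itself differed between TKO and WT for 9258 genes, of which 4734 (25.5%) moved further upward or less downward in TKO and 4524 (24.4%) the other way. Of the 4726 genes higher in TKO, 1579 (33.4%) were lower in WT, where 30.4% of all genes were lower. Of the 4552 lower in TKO, 1057 (23.2%) were higher in WT, where 26.6% of all genes were higher, so both shares lay near those of all genes. Counts of list members below are read against these shares and this median.

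Genes of the pluripotency core were higher at TKO D8. Of 16 members tested, 13 were higher and none lower, with a median log2 change of 2.44. Their summed level was 2456 and 2294 CPM in the TKO D8 libraries, against 1170 and 940 CPM in the TKO D6 libraries. Pou5f1, the POU factor at the centre of the network, had 553 and 499.6 CPM in the TKO D8 libraries, against 55.4 and 44.2 CPM in the TKO D6 libraries (log2 fold change 3.40, SE 0.23, adjusted p = 3.4e-09). Both D8 libraries lay far above both D6 libraries. Utf1, a chromatin-associated factor of stem cells, had 165 and 143 CPM in the TKO D8 libraries, against 17.4 and 12.5 CPM in the TKO D6 libraries (log2 fold change 3.36, SE 0.20, adjusted p = 5.0e-10). L1td1, an RNA-binding protein of pluripotent cells, had 315 and 271 CPM in the TKO D8 libraries, against 30.4 and 28.2 CPM in the TKO D6 libraries (log2 fold change 3.32, SE 0.17, adjusted p = 1.3e-10). Here too every D8 library exceeded every D6 library several times over. Dnmt3l, the cofactor of the de novo DNA methyltransferases, had 35.0 and 41.4 CPM in the TKO D8 libraries, against 5.77 and 3.65 CPM in the TKO D6 libraries (log2 fold change 3.0, SE 0.22, adjusted p = 7.7e-09). Nanog was higher by a log2 change of 1.64, with 77.1 and 84.8 CPM in the TKO D8 libraries, against 29.6 and 22.4 CPM in the TKO D6 libraries. Its step did not differ past the threshold from that in WT. Dppa2 and Dppa4, paired chromatin factors that lie side by side, were higher by 3.11 and 2.42, but 33.8% and 40.1% of their 31-base words are shared with other genes, so their levels are uncertain. Sox2, which neural progenitors share with stem cells, did not pass, with 145 and 132 CPM in the TKO D8 libraries, against 149.7 and 145 CPM in the TKO D6 libraries (adjusted p = 0.23). The other 2 that did not pass were the RNA-binding protein Lin28a (0.06, adjusted p = 0.67) and the ubiquitin ligase Trim71 (0.02, adjusted p = 0.86). In WT cells 8 of the 16 were higher and 6 lower, and the step differed between genotypes for 12, each of them further upward in TKO. Pou5f1 had 17.6 and 7.49 CPM at WT D8, against 5.76 and 3.04 CPM at WT D6, a log2 change of 1.5, and the difference between the steps was 1.90 (adjusted p = 6.7e-04). WT Dppa4 was lower at D8 (-1.74), which made its difference, 4.16, the widest of the core list.

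**Figure D1:**
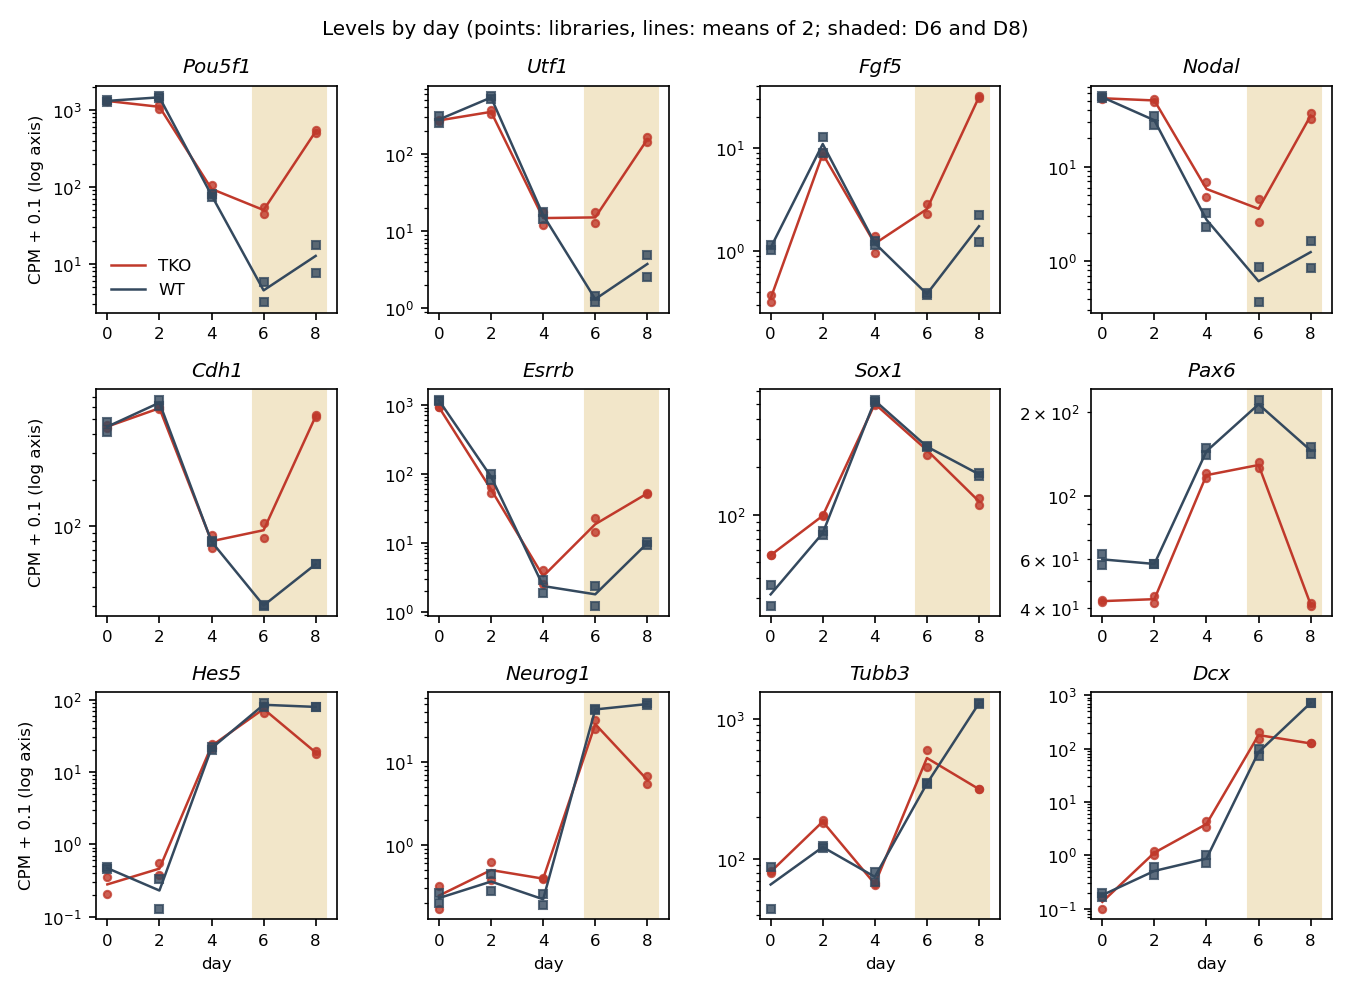
Levels of 12 genes on each day, in CPM plus 0.1 on a log axis, for TKO (red circles) and WT (dark squares), with a point per library and a line through the mean of 2. In TKO cells Pou5f1, Utf1, Fgf5, Nodal and Cdh1 turn upward after D6 while Pax6, Hes5, Neurog1 and Tubb3 turn downward, and Pou5f1 stands at 553 and 499.6 CPM at TKO D8.

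Markers of naive pluripotency, the state of the inner cell mass, were also higher, 16 of 18 with 1 lower and a median of 1.94. Their summed level was 702 and 687 CPM in the TKO D8 libraries, against 206 and 164 CPM in the TKO D6 libraries. Klf4, a zinc-finger factor sustained by LIF, had 33.0 and 39.4 CPM in the TKO D8 libraries, against 9.30 and 8.46 CPM in the TKO D6 libraries (log2 fold change 2.03, SE 0.12, adjusted p = 4.9e-10), and Esrrb, an orphan nuclear receptor, had 50.5 and 53 CPM in the TKO D8 libraries, against 22.8 and 14.1 CPM in the TKO D6 libraries (log2 fold change 1.48, SE 0.19, adjusted p = 5.0e-06). Fgf4, the growth factor that starts the exit from the naive state, had 52.5 and 45.3 CPM in the TKO D8 libraries, against 7.01 and 5.54 CPM in the TKO D6 libraries (log2 fold change 2.95, SE 0.15, adjusted p = 8.3e-11). The D8 and D6 libraries did not overlap for any of these. Dppa5a and Tdh were higher by 2.49 and 2.48, with 57.2% and 17.1% of their 31-base words shared. Gbx2, which also marks the midbrain-hindbrain boundary and is a naive factor, was the member that was lower (-0.39), a call lost without TKO D8 replicate 2 or TKO D6 replicate 1. Levels stayed well under those of TKO stem cells: Esrrb averaged 51.7 ± 1.8 CPM at D8, against 919 ± 0.51 CPM at D0, and Klf4 36.2 ± 4.5 CPM, against 435 ± 16.1 CPM. The WT step ran the same way for part of this list, with 6 members higher and 1 lower. For Esrrb and Klf4 the WT change was the larger, at 2.51 and 3.09 from WT D6 means of 1.68 ± 0.79 and 2.54 ± 0.18 CPM, and the differences between the steps, -1.03 and -1.06, passed with adjusted p of 0.030 and 2.2e-04. Over the list the steps differed further upward in TKO for 5 members and the other way for 3.

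Zfp42 (Rex1), a zinc-finger gene switched off early in differentiation, had 67.1 and 64.7 CPM in the TKO D8 libraries, against 23.8 and 17.8 CPM in the TKO D6 libraries (log2 fold change 1.66, SE 0.20, adjusted p = 3.0e-06; 13.4% of its 31-base words are shared). Its promoter is shown because it holds the octamer ATGCAAAT, the letters bound by POU factors such as Pou5f1, which rose in the same libraries. The RefSeq window on GRCm38.p6, from 250 bases before to 50 bases after the annotated start, is chr8:43306960-43307259 on the minus strand, and the capitals mark the octamer on either strand.
Zfp42: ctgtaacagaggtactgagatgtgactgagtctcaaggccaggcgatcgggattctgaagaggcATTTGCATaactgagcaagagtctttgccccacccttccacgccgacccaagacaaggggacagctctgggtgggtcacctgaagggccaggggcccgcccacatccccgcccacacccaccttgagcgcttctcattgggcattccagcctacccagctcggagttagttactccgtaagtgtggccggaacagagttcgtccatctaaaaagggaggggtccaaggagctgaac
The match begins 186 bases before the annotated start. Of the 52 genes of the 3 pluripotency lists, 35 had a window by symbol, 51 windows in all, and 2 of the 51 held the octamer, those of Zfp42 and the Wnt antagonist Sfrp2, which moved the other way (-1.0). Across the 32851 windows searched, which did not cover every chromosome, 570, or 1.74%, held it on either strand. Any listed gene on a chromosome that was not searched counts as having no window. The match describes letters, not binding.

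Genes of the formative and primed states were higher for 14 of 18 members and lower for 3, with a median of 1.96. Fgf5, a fibroblast growth factor of the post-implantation epiblast, had 31.8 and 30.8 CPM in the TKO D8 libraries, against 2.75 and 2.18 CPM in the TKO D6 libraries (log2 fold change 3.66, SE 0.22, adjusted p = 6.7e-10), with both D8 libraries far above both D6 libraries. Its TKO D8 mean of 31.3 ± 0.68 CPM also lay above the 8.69 ± 0.50 CPM of TKO D2, the day on which it had earlier been highest. Otx2, a homeobox factor of epiblast and forebrain, had 71.4 and 61.2 CPM in the TKO D8 libraries, against 12.9 and 8.39 CPM in the TKO D6 libraries (log2 fold change 2.62, SE 0.15, adjusted p = 5.1e-10). Pou3f1 (Oct6) had 72.1 and 57.3 CPM in the TKO D8 libraries, against 11.6 and 9.86 CPM in the TKO D6 libraries (log2 fold change 2.58, SE 0.13, adjusted p = 1.2e-10). The D8 values of both were higher in each library. Lef1, a transcription factor of Wnt signalling, and Etv4, an ETS factor induced by Fgf, were higher by 2.61 and 2.55. The de novo DNA methyltransferase genes Dnmt3b and Dnmt3a, which the epiblast raises, were higher by 2.21 and 1.71, with 32.2 and 28.7 CPM in the TKO D8 libraries, against 9.21 and 9.33 CPM in the TKO D6 libraries for Dnmt3a. In WT neither changed past the threshold (-0.05 and -0.04, adjusted p = 0.73 and 0.64), and the differences between the steps were 2.27 and 1.75 (adjusted p = 1.8e-08 and 1.5e-09). In all, 12 of the 18 moved further upward in TKO than in WT and 2 the other way. For Fgf5 the steps did not differ past the threshold.

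Of 15 Nodal pathway genes, 8 were higher and 6 lower, or 4 higher and 6 lower among those with under 10% of words shared. Nodal, the Tgfb-family ligand of the epiblast, had 32.1 and 37.2 CPM in the TKO D8 libraries, against 4.46 and 2.49 CPM in the TKO D6 libraries (log2 fold change 3.29, SE 0.23, adjusted p = 4.4e-09), and its antagonists and targets Lefty1 and Lefty2 were higher by 3.20 and 2.67, although 25.7% and 18.4% of their 31-base words are shared. The co-receptor Tdgf1 (Cripto) had 69.4 and 66.7 CPM in the TKO D8 libraries, against 12.8 and 9.30 CPM in the TKO D6 libraries (log2 fold change 2.61, SE 0.22, adjusted p = 4.9e-08), and the transcription factor Foxh1 had 56.4 and 52.7 CPM in the TKO D8 libraries, against 11.6 and 9.09 CPM in the TKO D6 libraries (log2 fold change 2.39, SE 0.12, adjusted p = 1.4e-10). For Nodal, Tdgf1 and Foxh1 both D6 libraries were low and both D8 libraries high. The related ligand Gdf3 (2.23), its relative Gdf1 (1.83) and the inhibitory Smad7 (1.46) were the other 3 that were higher. The receptors Acvr2a (-0.90), Acvr2b (-0.37) and Acvr1b (-0.25) and the transducers Smad2 (-0.35) and Smad3 (-0.90) were lower, as was the processing enzyme Furin (-0.51). The WT step of Nodal did not pass (1.14, adjusted p = 0.070), and the difference between the steps was 2.15 (adjusted p = 0.0092). For Tdgf1 the steps did not differ past the threshold.

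Fgf ligands and targets of the Mapk pathway were higher for 16 of 24 members and lower for 5, or 3 without TKO D8 replicate 2, with a median of 0.84. Fos, an immediate-early AP-1 factor, had 86.8 and 100.2 CPM in the TKO D8 libraries, against 11.9 and 6.18 CPM in the TKO D6 libraries (log2 fold change 3.35, SE 0.27, adjusted p = 2.6e-08). Fgf8, an organiser ligand of the streak and the midbrain-hindbrain boundary, had 5.73 and 7.96 CPM in the TKO D8 libraries, against 1.10 and 0.947 CPM in the TKO D6 libraries (log2 fold change 2.73, SE 0.34, adjusted p = 3.7e-06). The ETS factors Etv4 and Etv5 were higher by 2.55 and 2.36, while the receptor Fgfr3, which neural progenitors use, was lower, with a log2 change of -2.34. In WT 16 members were also higher and 2 lower, and Fos there had a change of 3.98 that did not differ past the threshold from that in TKO (difference -0.63, adjusted p = 0.20).

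Epithelial genes were higher for 23 of 27 members and lower for 2, with a median of 1.10. Cdh1, the E-cadherin of stem cells and epithelia, had 529 and 513 CPM in the TKO D8 libraries, against 105 and 83.2 CPM in the TKO D6 libraries (log2 fold change 2.47, SE 0.10, adjusted p = 1.0e-11), and its D0 mean in TKO was 446 ± 10.5 CPM. Epcam, an adhesion molecule, had 153 and 137 CPM in the TKO D8 libraries, against 30.2 and 22.0 CPM in the TKO D6 libraries (log2 fold change 2.47, SE 0.11, adjusted p = 3.7e-11). Esrp1, the splicing factor of epithelial isoforms, had 77.5 and 70.7 CPM in the TKO D8 libraries, against 15.6 and 11.6 CPM in the TKO D6 libraries (log2 fold change 2.44, SE 0.14, adjusted p = 4.7e-10). All 3 separated the days without overlap. The small GTPase Rab25 and the keratin Krt14 were higher by 2.60 and 2.76, with Krt14 under 1 CPM at D6 and 28.2% of its 31-base words shared. Krt8, a keratin of simple epithelia, was higher by 0.29, with 182 and 180.3 CPM in the TKO D8 libraries, against 152 and 145 CPM in the TKO D6 libraries. The defining markers of stratified epithelium stayed near 0, Krt5 at 0.439 ± 0.028 CPM and Trp63 at 0.402 ± 0.12 CPM on average at D8, and Trp63 was lower (-1.78). Cdh2, the N-cadherin of neural tissue from the neural progenitor list, was lower, with a log2 change of -1.21, with 179 and 182 CPM in the TKO D8 libraries, against 426 and 411 CPM in the TKO D6 libraries. In WT 18 epithelial members were higher and 3 lower, and the steps differed further upward in TKO for 10 and the other way for 6. WT Cdh1 rose by 0.90, and the difference between the steps was 1.57 (adjusted p = 9.0e-08).

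Neural progenitor genes were lower for 15 of 25 members and higher for 4, with a median of -0.52. Their summed level was 1837 and 1849 CPM in the TKO D8 libraries, against 3177 and 3374 CPM in the TKO D6 libraries. Pax6, a paired-box factor of neuroectoderm counted with the dorsoventral genes, had 41.6 and 40.9 CPM in the TKO D8 libraries, against 126 and 133 CPM in the TKO D6 libraries (log2 fold change -1.65, SE 0.063, adjusted p = 4.6e-12). Sox1, the earliest neural SoxB1 factor, had 116 and 127 CPM in the TKO D8 libraries, against 272 and 237 CPM in the TKO D6 libraries (log2 fold change -1.07, SE 0.092, adjusted p = 5.1e-08), and Nes, the intermediate filament nestin, had 232 and 225 CPM in the TKO D8 libraries, against 308 and 347 CPM in the TKO D6 libraries (log2 fold change -0.52, SE 0.081, adjusted p = 4.0e-05). Both D8 libraries lay below both D6 libraries for each of the 3, and Sox1 and Nes stayed well detected. The TKO D8 mean of Pax6, 41.2 ± 0.50 CPM, was close to its TKO D0 mean of 42.4 ± 0.33 CPM, whereas Sox1 at 121 ± 7.6 CPM stood above its TKO D0 mean of 55.5 ± 0.12 CPM. Pou3f2 (Brn2), a POU factor of neural progenitors, had 37.4 and 39.1 CPM in the TKO D8 libraries, against 126 and 148 CPM in the TKO D6 libraries (log2 fold change -1.84, SE 0.12, adjusted p = 2.4e-09). The endothelin receptor Ednrb and the RNA-binding protein Msi1 were lower, with log2 changes of -1.89 and -1.26, and Sox3 had -1.32. The glutamate transporter Slc1a3 (1.03), the fatty acid binding protein Fabp7 (0.42), the proteoglycan Ncan (0.40) and the phosphatase Ptprz1 (0.30), were the 4 that were higher, and 2 were higher without TKO D8 replicate 1 or TKO D6 replicate 1. In WT 14 members were higher and 8 lower, and 19 of the 25 moved further downward in TKO than in WT, 2 the other way. WT Sox1 and Pax6 were lower too (-0.58 and -0.54), by less than in TKO (differences -0.49 and -1.10, adjusted p = 0.0039 and 1.4e-08). WT Nes was higher (0.40).

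Position along the neural tube was read from factors that mark it. Of 24 dorsoventral genes, 13 were lower and 2 higher, with a median of -0.66. Dbx1, a homeobox factor of progenitors at intermediate dorsoventral positions, had 25.5 and 21.0 CPM in the TKO D8 libraries, against 153 and 205 CPM in the TKO D6 libraries (log2 fold change -2.95, SE 0.14, adjusted p = 1.6e-10). Its paralog Dbx2 changed by -2.32. Olig2, of motor neuron progenitors, had 0.245 and 0.398 CPM in the TKO D8 libraries, against 3.71 and 2.88 CPM in the TKO D6 libraries (log2 fold change -3.33, SE 0.50, adjusted p = 2.9e-05). These D8 values were low in both libraries. Shh, the ventral ligand, was higher by 1.11, with 10.7 and 10.5 CPM in the TKO D8 libraries, against 4.78 and 5.05 CPM in the TKO D6 libraries, and Lmx1a, of roof plate and floor plate, was higher from under 1 CPM. None of the 24 moved further upward in TKO than in WT, and 19 moved further downward. Of 27 anterior-posterior genes, 12 were lower and 7 higher. The hindbrain Hox genes were among those that were lower: Hoxa2 had 2.38 and 2.36 CPM in the TKO D8 libraries, against 18.6 and 19.9 CPM in the TKO D6 libraries (log2 fold change -3.02, SE 0.14, adjusted p = 4.1e-11; 13.7% of 31-base words shared), Hoxa3 changed by -2.53, Hoxb2 by -2.26 and Hoxb4 by -2.32. Otx2 was among the 7 that were higher, as was Fgf8, a ligand of the midbrain-hindbrain boundary.

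Notch genes were lower for 12 of 16 members and higher for 1, with a median of -0.52. Among the targets, Hes5, the helix-loop-helix repressor that holds progenitors, had 19.3 and 17.7 CPM in the TKO D8 libraries, against 66.1 and 82.2 CPM in the TKO D6 libraries (log2 fold change -2.0, SE 0.12, adjusted p = 9.1e-10), and Nrarp, a feedback inhibitor, had 49.3 and 50.0 CPM in the TKO D8 libraries, against 128 and 162 CPM in the TKO D6 libraries (log2 fold change -1.55, SE 0.13, adjusted p = 4.6e-08). Among the ligands, Dll4 had 1.22 and 1.87 CPM in the TKO D8 libraries, against 8.95 and 11.5 CPM in the TKO D6 libraries (log2 fold change -2.71, SE 0.22, adjusted p = 2.6e-08) and Jag1 had 70.0 and 71.9 CPM in the TKO D8 libraries, against 116 and 120.4 CPM in the TKO D6 libraries (log2 fold change -0.73, SE 0.068, adjusted p = 1.4e-07). D8 lay below D6 in every library for these genes. The glycosyltransferase Lfng, which tunes the receptors, was lower, with a log2 change of -1.20, and the receptors Notch1 and Notch2 were at -0.32 and -0.37. The ligand Jag2 was the member that was higher (0.67). In WT, Hes5 had 78.6 and 79.6 CPM at WT D8, against 79.0 and 90.3 CPM at WT D6, with a change of -0.10 that did not pass (adjusted p = 0.48), while Nrarp was higher (0.54). The steps differed for 13 members, 12 further downward in TKO, with -1.91 for Hes5 (adjusted p = 4.8e-08).

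The promoters of Hes5 and Lfng are shown because both genes were lower and both windows hold GTGGGAA, the letters bound by Rbpj, the DNA-binding partner of Notch. That of Hes5 holds 2 matches. The RefSeq window is chr4:154960673-154960972 on the plus strand of GRCm38.p6, with either strand of the word in capitals.
Hes5: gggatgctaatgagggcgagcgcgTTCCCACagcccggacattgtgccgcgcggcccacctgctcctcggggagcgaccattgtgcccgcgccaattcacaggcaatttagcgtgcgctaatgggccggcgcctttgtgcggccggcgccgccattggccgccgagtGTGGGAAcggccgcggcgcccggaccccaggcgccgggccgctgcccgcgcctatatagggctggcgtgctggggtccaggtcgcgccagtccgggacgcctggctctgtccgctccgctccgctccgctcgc
The Lfng window, chr5:140607091-140607390 on the plus strand, holds 1 match.
Lfng: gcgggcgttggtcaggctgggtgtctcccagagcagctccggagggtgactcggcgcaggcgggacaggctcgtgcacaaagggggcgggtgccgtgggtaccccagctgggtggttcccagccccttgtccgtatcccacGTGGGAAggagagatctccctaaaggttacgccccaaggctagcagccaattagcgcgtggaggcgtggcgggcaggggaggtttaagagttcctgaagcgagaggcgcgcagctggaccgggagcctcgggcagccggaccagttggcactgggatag
Of the 16 Notch genes, 12 had a window, 13 windows in all, and 3 of the 13 held the word, those of Hes5, Lfng and Hey2. Hey2, with 2 matches like Hes5, was near 2 CPM and did not pass (-0.16, adjusted p = 0.64). The word was found in 2097 of the same 32851 windows searched, 6.38%, on either strand.

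Proneural factors, which start neurogenesis, were lower for 14 of 18 members and higher for 1, with a median of -0.84. Neurog1 had 6.61 and 5.36 CPM in the TKO D8 libraries, against 25.0 and 32.1 CPM in the TKO D6 libraries (log2 fold change -2.26, SE 0.15, adjusted p = 1.9e-09), and Neurod4, which acts after it, had 2.52 and 3.28 CPM in the TKO D8 libraries, against 14.8 and 18.2 CPM in the TKO D6 libraries (log2 fold change -2.50, SE 0.20, adjusted p = 1.6e-07). For both, the D8 libraries agreed closely and lay below the D6 libraries. Neurod1 and Nhlh1 were lower, with log2 changes of -1.39 and -1.21, and Neurog2 had -0.88 (adjusted p = 0.016), with an adjusted p of 0.060 to 0.072 without either TKO D8 replicate or TKO D6 replicate 2. Hes6, which promotes neurogenesis against Hes1, was the member that was higher (0.41), a call lost without TKO D6 replicate 1. WT cells had 12 of the 18 higher and none lower. For 14 members the TKO step was further downward than the WT step, and for none the other way.

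Genes of the neuronal cytoskeleton and adhesion were lower for 12 of 26 members and higher for 3, with a median of -0.29, whereas in WT 25 were higher and none lower, with a median of 2.18. Their summed level was 3018 and 3006 CPM in the TKO D8 libraries, against 3567 and 4433 CPM in the TKO D6 libraries. Tubb3, the neuronal beta-tubulin, had 314 and 315 CPM in the TKO D8 libraries, against 452 and 596 CPM in the TKO D6 libraries (log2 fold change -0.74, SE 0.18, adjusted p = 0.0027). Its WT values were 1275 and 1298 CPM at WT D8, against 346 and 343 CPM at WT D6, a change of 1.90. Dcx, a microtubule-binding protein of migrating neurons, had 125 and 125 CPM in the TKO D8 libraries, against 154 and 205 CPM in the TKO D6 libraries (log2 fold change -0.52, SE 0.12, adjusted p = 0.0020), and in WT 713 and 724 CPM at WT D8, against 98.0 and 73.9 CPM at WT D6, a change of 3.06. At D6 both genes were thus at least as high in the TKO libraries as in the WT libraries, and at D8 they were lower in TKO. Differences between the steps were -2.64 for Tubb3 and -3.58 for Dcx (adjusted p = 2.0e-07 and 2.2e-10). Elavl4, a neuronal RNA-binding protein, and the neurofilament Nefm were lower, with log2 changes of -1.35 and -1.05, with 19% of the 31-base words of Nefm shared. The 3 that were higher were the adhesion molecule Chl1 (2.12), the heavy neurofilament Nefh (2.02) and the splicing factor Rbfox1 (0.81). Map2, a dendritic microtubule protein and a defining marker, did not pass, with 156 and 166 CPM in the TKO D8 libraries, against 158 and 194 CPM in the TKO D6 libraries (adjusted p = 0.32). The steps differed for 24 of the 26, all further downward in TKO. The lower calls within TKO rested on TKO D6 replicate 2, the library with the higher neuronal levels: without it 4 of the 26 were lower and 5 higher, and the change was -0.52 for Tubb3 (adjusted p = 0.053) and -0.30 for Dcx (adjusted p = 0.068).

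**Figure D2:**
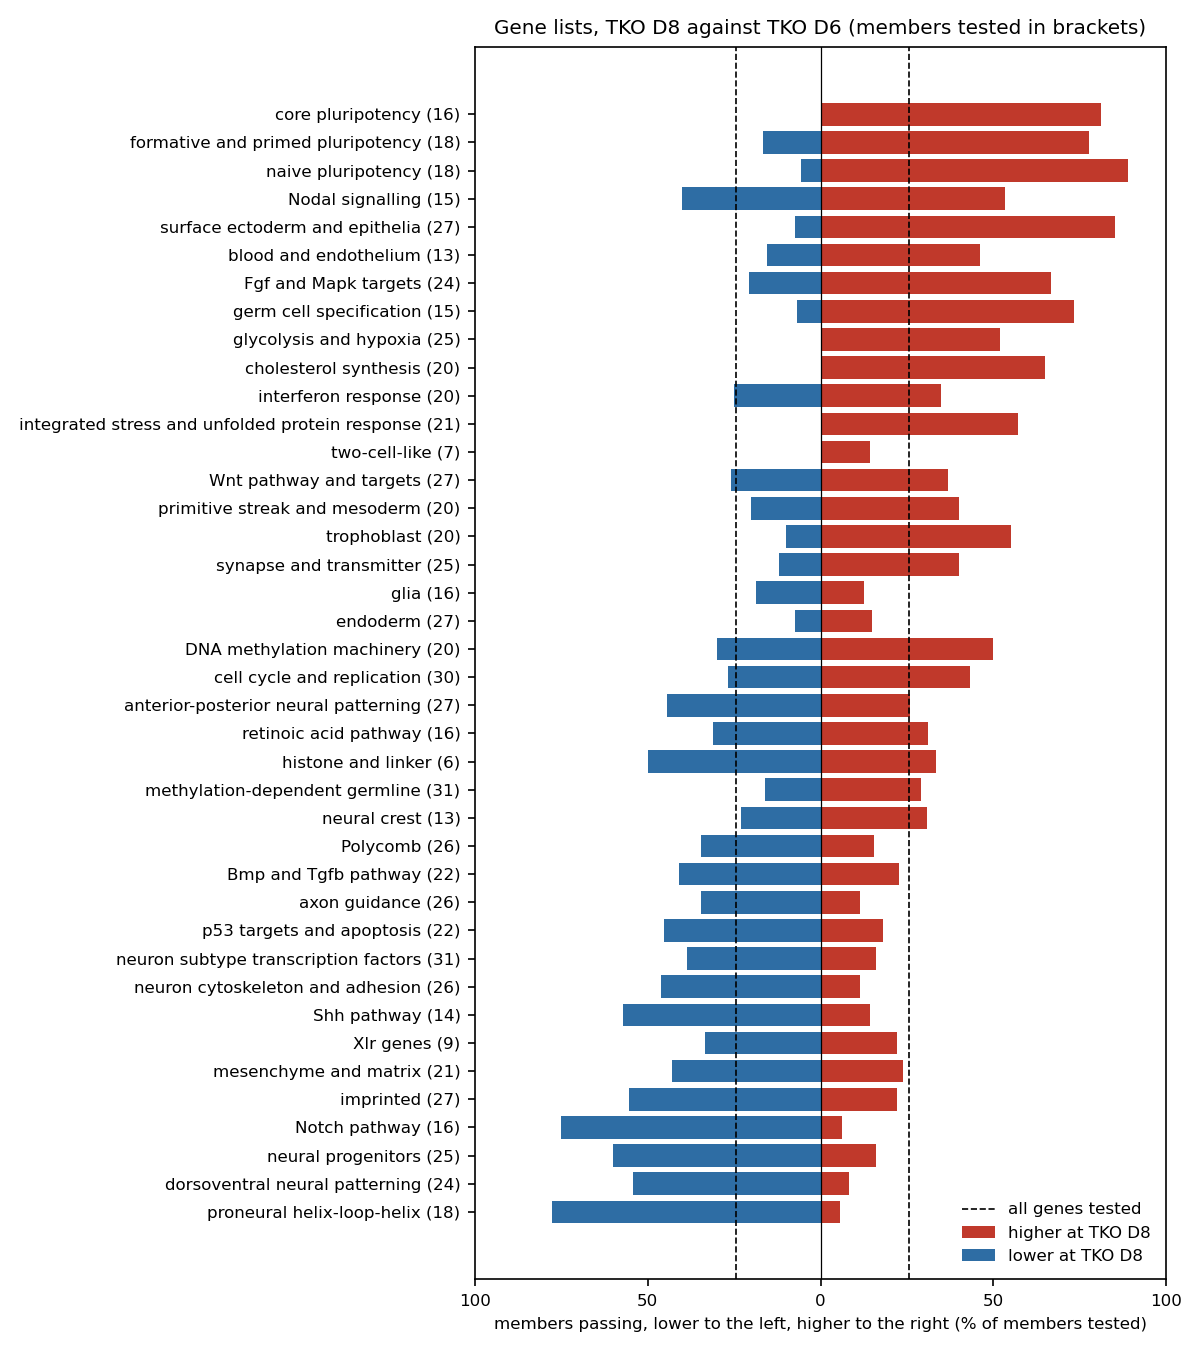
Share of the tested members of each of 40 gene lists that were lower (blue, to the left) or higher (red, to the right) at TKO D8 than at TKO D6, in percent, ordered by the list's median log2 change with the number tested in brackets; dashed lines give 24.5% lower and 25.5% higher over all genes tested. The 3 pluripotency lists are at the top and the proneural list is at the bottom.

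Of 25 synaptic and transmitter genes, 10 were higher and 3 lower, with a median of 0.30, at low levels. Fewer were higher with any 1 of the 4 TKO libraries left out. At an adjusted p under 0.01, 6 of the 25 were higher, beside 3490 of all 18555 genes. The number lower was 1 without TKO D8 replicate 1 and 0 without TKO D8 replicate 2 or TKO D6 replicate 2. Syt4, a synaptotagmin, had 13.3 and 13.7 CPM in the TKO D8 libraries, against 4.08 and 7.09 CPM in the TKO D6 libraries (log2 fold change 1.29, SE 0.17, adjusted p = 8.1e-06), and Gria2, an AMPA receptor subunit, had 4.72 and 4.41 CPM in the TKO D8 libraries, against 1.83 and 2.32 CPM in the TKO D6 libraries (log2 fold change 1.15, SE 0.18, adjusted p = 4.2e-05). Gria1 and Grin2b, further glutamate receptor subunits, were higher by 2.19 and 2.08 at D8 means of 2.13 ± 0.25 and 1.61 ± 0.15 CPM. The WT gain was far larger, 22 of 25 higher with a median of 2.98, and all 22 differences between the steps were further downward in TKO. WT Gria2 had 64.7 and 61.4 CPM at WT D8, against 0.909 and 0.728 CPM at WT D6, and the difference between the steps was -5.11 (adjusted p = 3.0e-10). Transcription factors of neuron subtypes were lower for 12 of 31 and higher for 5. Evx1, of spinal interneurons, had 1.47 and 2.21 CPM in the TKO D8 libraries, against 4.14 and 6.42 CPM in the TKO D6 libraries (log2 fold change -1.51, SE 0.30, adjusted p = 4.9e-04). Eomes, shared by cortical intermediate progenitors and the primitive streak, was higher, with 5.52 and 7.29 CPM in the TKO D8 libraries, against 0.898 and 0.912 CPM in the TKO D6 libraries (log2 fold change 2.82, SE 0.27, adjusted p = 1.9e-07). Axon guidance genes were lower for 9 of 26 and higher for 3, or 6 higher without TKO D6 replicate 2, with the ephrin receptor Epha4 at -1.32, the Slit receptor Robo2 at -1.02 and netrin Ntn1 at -0.97.

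**Figure D3:**
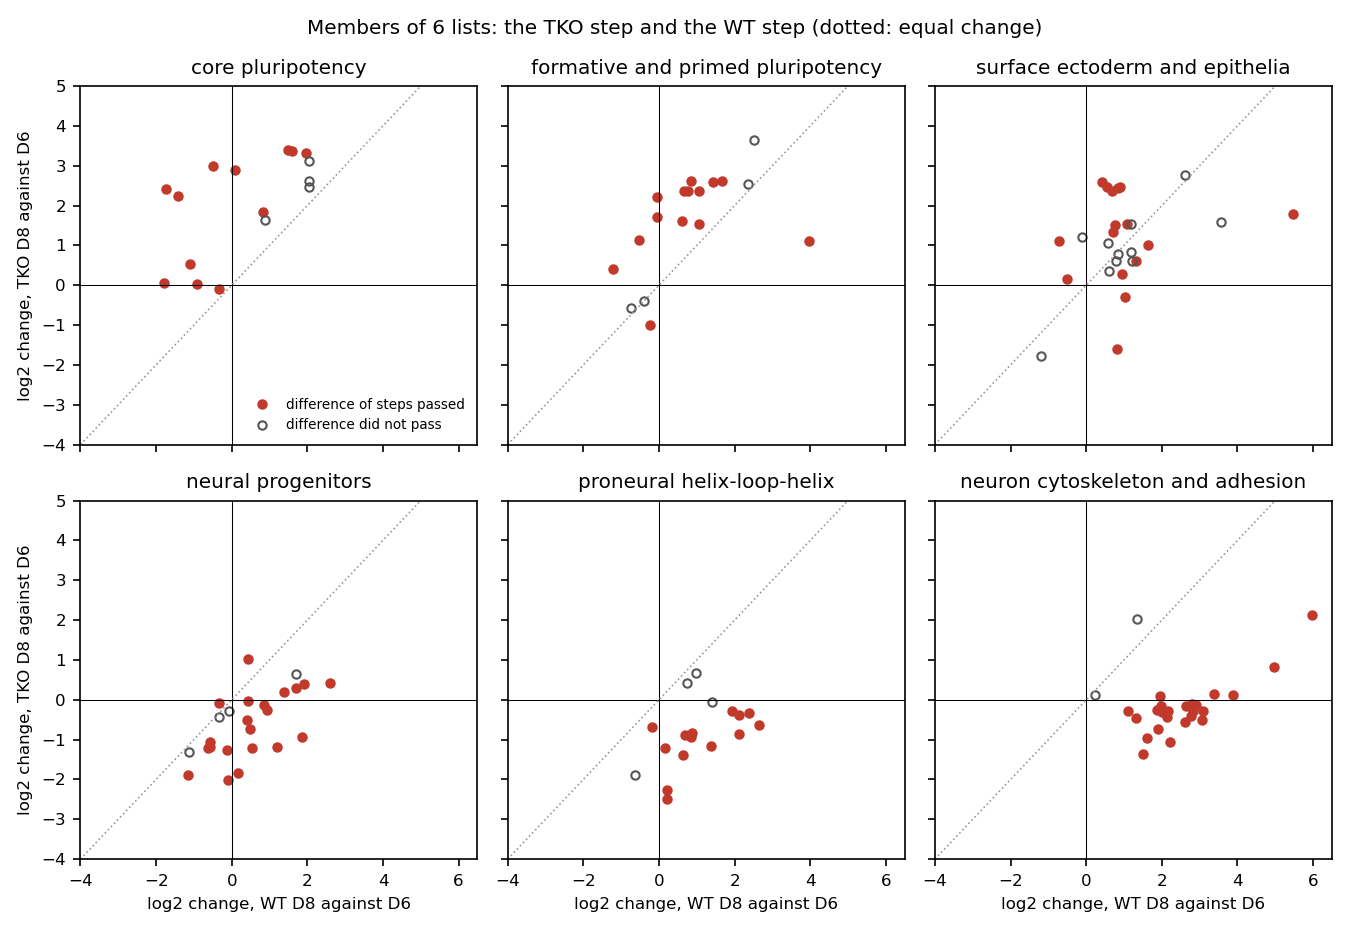
Log2 change from D6 to D8 in TKO (vertical) against that in WT (horizontal) for the tested members of 6 lists, a point per gene, filled red where the difference between the steps passed the edgeR test and open where it did not. Most genes of the neuron panel lie to the right and near or below 0, with Dcx at -0.52 in TKO and 3.06 in WT, and core pluripotency genes lie above the dotted line of equal change.

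Markers of cell types other than neural progenitors and neurons were measured as well. Among their defining markers, Gfap (0.280 ± 0.049 CPM), Aqp4 (0.899 ± 1.0 CPM), Sox10 (0.225 ± 0.071 CPM), Mixl1 (0.339 ± 0.084 CPM), Ptprc (0.195 ± 0.028 CPM) and Elf5 (0.568 ± 0.28 CPM) were under 1 CPM on average at TKO D8. Tpbpa, which with Elf5 defined trophoblast, went the other way and was higher by 3.59, among the highest changes given below. T (brachyury), the T-box factor of the streak, had 2.48 and 6.19 CPM in the TKO D8 libraries, against 1.59 and 0.842 CPM in the TKO D6 libraries (log2 fold change 1.82, SE 0.39, adjusted p = 8.2e-04). TKO D8 replicate 2 was well above replicate 1, and without it the change was 1.01 (adjusted p = 0.051). Of 20 streak and mesoderm genes, 8 were higher and 4 lower, and 5 were higher without TKO D8 replicate 2. Cdh5, the endothelial cadherin, had 41.2 and 41.3 CPM in the TKO D8 libraries, against 9.85 and 11.1 CPM in the TKO D6 libraries (log2 fold change 1.98, SE 0.13, adjusted p = 2.4e-09), and 6 of 13 blood and endothelial genes were higher and 2 lower, while Ptprc and Emcn were too low to test. The number lower was 0 without TKO D8 replicate 1 and 1 without TKO D8 replicate 2 or TKO D6 replicate 2. That list summed to 91.9 and 94.7 CPM in the TKO D8 libraries, against 46.0 and 44.7 CPM in the TKO D6 libraries. In WT 6 of its 13 members were higher and 0 lower, and 10 of the 20 streak and mesoderm genes were higher and 1 lower. The steps differed further upward in TKO for 2 blood and endothelial and 3 streak and mesoderm genes, and the other way for 3 and 6. Endoderm genes were higher for 4 of 27 members and lower for 2. There were 7 higher without TKO D8 replicate 1 and 1 without TKO D8 replicate 2 or TKO D6 replicate 1. The endoderm list summed to 3382 and 5075 CPM in the TKO D8 libraries, against 3935 and 4234 CPM in the TKO D6 libraries. In WT 19 of the 27 endoderm genes were higher and 2 lower. The steps differed further downward in TKO for 17 and further upward for 0. Sox17 had 8.39 and 14.3 CPM in the TKO D8 libraries, against 9.07 and 11.3 CPM in the TKO D6 libraries, and did not pass (adjusted p = 0.63). Trophoblast genes were higher for 11 of 20 and lower for 2, with 7 higher without TKO D8 replicate 1 or TKO D6 replicate 2. With any 1 of the 4 TKO libraries left out, 1 was lower. Cdx2 had 2.48 and 2.63 CPM in the TKO D8 libraries, against 0.521 and 0.386 CPM in the TKO D6 libraries (log2 fold change 2.47, SE 0.34, adjusted p = 1.2e-05), and Plet1 and Hand1 were higher by 1.23 and 1.23. The trophoblast list summed to 1533 and 1542 CPM in the TKO D8 libraries, against 2184 and 2181 CPM in the TKO D6 libraries. In WT 16 of the 20 trophoblast genes were higher and 1 lower. The steps differed further downward in TKO for 11 and further upward for 0. Of 16 glial genes, 2 were higher and 3 lower, or 3 higher and 1 lower without TKO D6 replicate 1, with the nuclear factor Nfib at 2.70, and of 13 neural crest genes, 4 were higher and 3 lower, with Tfap2b at 2.14. Mesenchyme and matrix genes were lower for 9 of 21 and higher for 5, and summed to 1189 and 1217 CPM in the TKO D8 libraries, against 2334 and 2028 CPM in the TKO D6 libraries. Thbs1, the matrix protein thrombospondin, had 99.8 and 104 CPM in the TKO D8 libraries, against 549 and 422 CPM in the TKO D6 libraries (log2 fold change -2.25, SE 0.13, adjusted p = 4.4e-10), the smooth-muscle actin Acta2 and the actin-binding Tagln were lower, with log2 changes of -1.98 and -1.77, and Col1a1 and Prrx1, defining markers of mesenchyme, averaged 2.47 ± 0.18 and 1.73 ± 0.32 CPM at D8. None of the defining markers of other cell types was at 0 in both TKO D8 libraries. The part that other cell types have in the neural and pluripotency results was not tested.

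Among genes that reached 5 CPM on either day and whose days did not overlap, the 12 highest changes were led by Fosb, an AP-1 partner of Fos, with 177 and 203 CPM in the TKO D8 libraries, against 2.43 and 1.33 CPM in the TKO D6 libraries (log2 fold change 6.62, SE 0.32, adjusted p = 7.4e-11). WT Fosb did the same, with 144 and 156 CPM at WT D8, against 2.70 and 2.15 CPM at WT D6. Vrtn, a DNA-binding protein that affects vertebral number in pigs, had 58.1 and 54.1 CPM in the TKO D8 libraries, against 2.06 and 2.18 CPM in the TKO D6 libraries (log2 fold change 4.73, SE 0.19, adjusted p = 6.7e-12). Foxi3, a forkhead factor of placodes, had 15.2 and 12.3 CPM in the TKO D8 libraries, against 0.493 and 0.702 CPM in the TKO D6 libraries (log2 fold change 4.53, SE 0.23, adjusted p = 9.5e-11). Trh, the precursor of thyrotropin-releasing hormone, had 646 and 617 CPM in the TKO D8 libraries, against 43.3 and 37.4 CPM in the TKO D6 libraries (log2 fold change 3.97, SE 0.16, adjusted p = 6.5e-12), the highest level of the 12 at D8. Enpp2, autotaxin, had 45.8 and 44.8 CPM in the TKO D8 libraries, against 4.03 and 2.88 CPM in the TKO D6 libraries (log2 fold change 3.70, SE 0.14, adjusted p = 4.3e-12). Each of these was low in both D6 libraries. The others were Tmem54 (4.11), Crocc2 (3.86), Pla2g1b (3.77), the cytokine Tnfsf11 (3.73), Fgf5, the placental Tpbpa (3.59) and Zfp640 (3.68), of whose 31-base words 64.0% are shared. Several had been high at TKO D2: Foxi3 averaged 36.6 ± 1.4 CPM there, Vrtn 66.2 ± 0.62 CPM, Tnfsf11 25.0 ± 0.38 CPM and Crocc2 49.2 ± 2.0 CPM, each above its D0 and D4 mean.

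**Figure D4:**
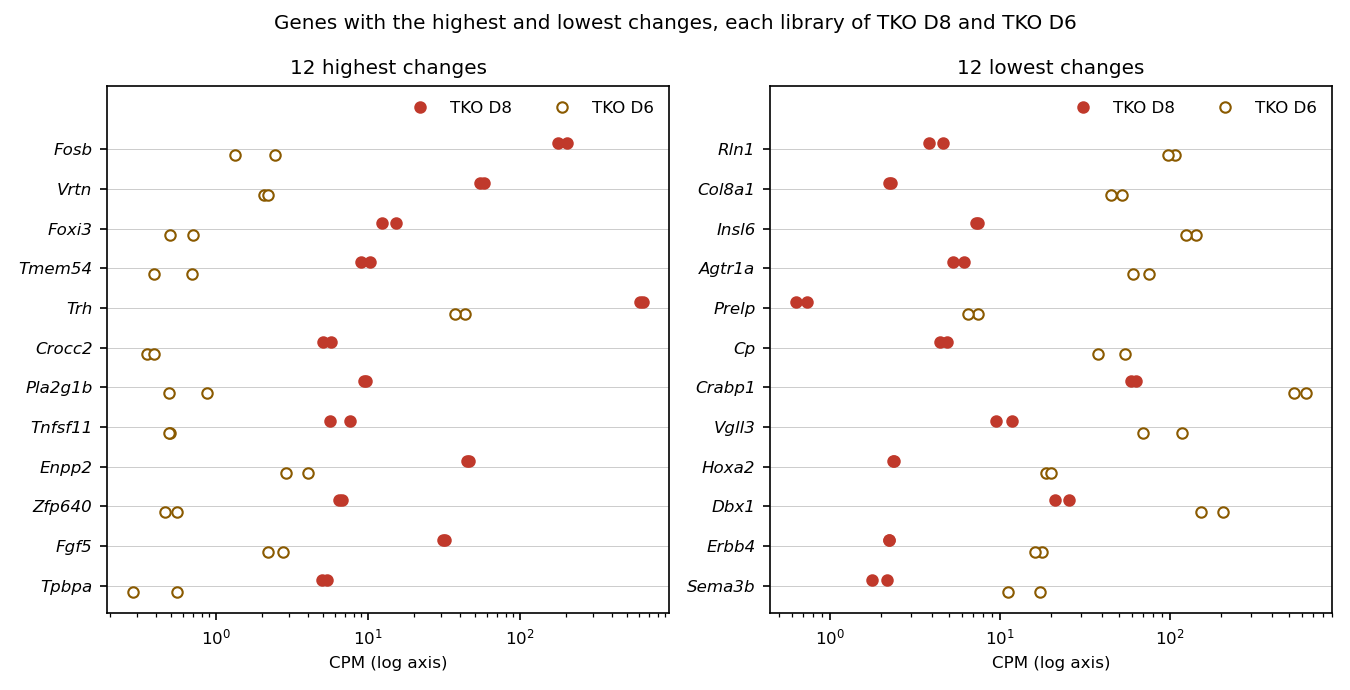
CPM on a log axis in each library of TKO D8 (filled red) and TKO D6 (open brown) for the 12 genes with the highest and the 12 with the lowest log2 change. No gene has overlapping days, and Trh reaches 646 and 617 CPM at D8 while Rln1 stands at 4.61 and 3.86 CPM.

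The 12 lowest changes were led by Rln1, the hormone relaxin, with 4.61 and 3.86 CPM in the TKO D8 libraries, against 107 and 97.8 CPM in the TKO D6 libraries (log2 fold change -4.60, SE 0.10, adjusted p = 1.0e-14), and Insl6, a related peptide, with 7.24 and 7.41 CPM in the TKO D8 libraries, against 142 and 125 CPM in the TKO D6 libraries (log2 fold change -4.19, SE 0.11, adjusted p = 2.6e-14). Col8a1, a short-chain collagen, had 2.31 and 2.24 CPM in the TKO D8 libraries, against 52.5 and 45.3 CPM in the TKO D6 libraries (log2 fold change -4.43, SE 0.16, adjusted p = 3.9e-12). Crabp1, a cytoplasmic retinoic acid binding protein, had 58.9 and 63.0 CPM in the TKO D8 libraries, against 541 and 637 CPM in the TKO D6 libraries (log2 fold change -3.27, SE 0.096, adjusted p = 1.5e-13). The D6 libraries were high and the D8 libraries low in all of them. Agtr1a (-3.57), Prelp (-3.34), Cp (-3.29), Vgll3 (-3.14), Hoxa2, Dbx1, the neuregulin receptor Erbb4 (-2.92) and Sema3b (-2.86) completed the 12. In WT the same 12 genes were lower as well, by log2 changes from -4.29 for Agtr1a to -0.61 for Hoxa2. The steps differed further downward in TKO for Rln1 (-0.69), Insl6 (-1.41), Cp (-0.72), Crabp1 (-1.27), Hoxa2 (-2.42), Dbx1 (-2.30) and Erbb4 (-1.87), and the other way for Agtr1a (0.72) and Vgll3 (0.85).

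The 8 highest and the 8 lowest differences between the TKO and WT steps were taken among genes with a mean of at least 5 CPM in any of the 4 groups. Among the highest was Tnfsf11, with 7.62 and 5.6 CPM in the TKO D8 libraries, against 0.493 and 0.491 CPM in the TKO D6 libraries. Its WT values were 0.256 and 0.0899 CPM at WT D8, against 0.212 and 0.364 CPM at WT D6 (difference 4.42, adjusted p = 1.2e-05). Dppa4, Crocc2 (3.98), Map7d3 (3.90) and the zinc-finger gene Wt1 (4.16) were also among them, with Wt1 at 2.76 without WT D6 replicate 1 (adjusted p = 0.063). Xlr5a and Xlr5b also belong there by rule, but both WT D8 libraries held 0 counts and 89.6% and 94.5% of their 31-base words are shared, so no fold is given for them. Among the lowest were the synaptic adhesion gene Slitrk1 (-6.40, and -4.36 with an adjusted p of 0.10 without TKO D6 replicate 1), Nkx1-1 (-5.71), Pmfbp1 (-5.68), the cadherin Cdh8 (-5.51), Fam19a2 (-5.49), Pnmal1 (-5.24) and Gria2. Xlr4b also belongs there by rule, but was at 0 in both WT D6 libraries and is given no fold. Its difference did not pass without WT D8 replicate 2 or either WT D6 replicate (adjusted p = 1.00, 0.078 and 0.072). Cdh8 had 0.559 and 0.276 CPM in the TKO D8 libraries, against 0.290 and 0.316 CPM in the TKO D6 libraries. Its WT values were 14.4 and 13.4 CPM at WT D8, against 0.212 and 0.232 CPM at WT D6, so the WT D8 libraries were the only high ones of the 8. Within TKO, Gria2 passed and the other 7 of these 8 genes did not, with adjusted p from 0.057 for Xlr4b to 0.85 for Slitrk1.

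Imprinted genes were lower for 15 of 27 members and higher for 6. Mest, a paternally expressed gene, had 859 and 834 CPM in the TKO D8 libraries, against 3966 and 3467 CPM in the TKO D6 libraries (log2 fold change -2.13, SE 0.062, adjusted p = 1.5e-13; 22.0% of 31-base words shared), and WT Mest was lower by about the same, -2.27. Grb10, an adaptor of growth factor receptors, had 120.3 and 99.7 CPM in the TKO D8 libraries, against 27.8 and 26.6 CPM in the TKO D6 libraries (log2 fold change 2.02, SE 0.13, adjusted p = 2.4e-09), whereas WT Grb10 was lower (-0.66), a difference of 2.68 (adjusted p = 3.3e-09). Magel2 was higher by 1.67 and Phlda2 was lower (-1.44). Germline genes known to be silenced by promoter DNA methylation were split, 9 of 31 higher and 5 lower with a median of -0.01, and the number lower was 3 without TKO D8 replicate 1 or TKO D6 replicate 2. Dazl, an RNA-binding protein of germ cells, had 113 and 109 CPM in the TKO D8 libraries, against 232 and 292 CPM in the TKO D6 libraries (log2 fold change -1.24, SE 0.13, adjusted p = 7.2e-07), while in WT it was under 1 CPM on both days. Piwil2, of the piRNA pathway, had 18.7 and 18.7 CPM in the TKO D8 libraries, against 8.98 and 7.47 CPM in the TKO D6 libraries (log2 fold change 1.18, SE 0.11, adjusted p = 2.2e-07), and Sycp3, of the synaptonemal complex, was higher by 1.90 with 46.5% shared 31-base words. Ddx4, a defining germ cell marker, had 28.0 and 29.5 CPM in the TKO D8 libraries, against 27.9 and 31.9 CPM in the TKO D6 libraries and did not pass (adjusted p = 0.75). Genes of germ cell specification, many of them shared with pluripotency, were higher for 11 of 15 and lower for 1, or 0 lower without either TKO D8 replicate or TKO D6 replicate 1, with Nr5a2 at 1.76, the alkaline phosphatase Alpl at 1.26 and Prdm1 at 1.12. Of 9 Xlr genes of the X chromosome, 2 were higher and 3 lower, or 1 lower without TKO D8 replicate 2, and each shares many of its 31-base words with another. Of 7 tested genes of the 2-cell-like state, Eif1a was the member that passed (0.27), and the others were under 1 CPM.

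Among genes of the DNA methylation machinery, 10 of 20 were higher and 6 lower. Tet1, a dioxygenase that oxidises 5-methylcytosine, had 188 and 181 CPM in the TKO D8 libraries, against 75.2 and 62.7 CPM in the TKO D6 libraries (log2 fold change 1.42, SE 0.081, adjusted p = 4.4e-10). The maintenance genes Dnmt1 (-0.02, adjusted p = 0.86) and Uhrf1 (0.15, adjusted p = 0.053) did not pass. Polycomb genes were lower for 9 of 26 and higher for 4: Phc1, a subunit of PRC1 abundant in stem cells, had 383 and 378 CPM in the TKO D8 libraries, against 135 and 127 CPM in the TKO D6 libraries (log2 fold change 1.54, SE 0.060, adjusted p = 6.0e-12), and Jarid2 and Rybp were higher by 0.85 and 0.88, while Ring1 and Bmi1 were lower, with log2 changes of -1.15 and -1.08.

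Of 30 cell cycle genes, 13 were higher and 8 lower, with a median of 0.14, against 2 higher and 24 lower in WT, where the median was -0.54. The steps differed for 24, of which 21 were further upward in TKO. Mki67, an antigen of cycling cells, had 412 and 425 CPM in the TKO D8 libraries, against 491 and 496 CPM in the TKO D6 libraries (log2 fold change -0.24, SE 0.067, adjusted p = 0.0067), and without TKO D8 replicate 1 its change was -0.22 (adjusted p = 0.055). Ccnd2, the D-type cyclin of neural progenitors, had 134 and 148 CPM in the TKO D8 libraries, against 566 and 569 CPM in the TKO D6 libraries (log2 fold change -2.01, SE 0.10, adjusted p = 1.2e-10) and was lower in WT too (-1.81), whereas Ccne1 was higher by 0.92 and in WT lower (-0.60). Cdkn1c, an inhibitor of cyclin-dependent kinases in cells that leave the cycle, was lower (-0.77). Genes of the p53 target and apoptosis list were higher for 4 of 22 and lower for 10, including Ccng1 (-0.80) and Bcl2 (-1.64). In WT 15 were lower and 1 higher. In TKO, 2 were higher without TKO D6 replicate 1 and 1 without any other of the 4 libraries.

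Of 25 glycolysis and hypoxia genes, 13 were higher and none lower, with a median of 0.57, against 5 higher and 14 lower in WT. A few were lower in TKO under other settings, 1 without TKO D6 replicate 2 or with the libraries of D4 to D8 alone, 2 with the compared groups alone and 3 with no filter on low counts. Ldha, lactate dehydrogenase, had 519.6 and 535 CPM in the TKO D8 libraries, against 236 and 252 CPM in the TKO D6 libraries (log2 fold change 1.11, SE 0.21, adjusted p = 2.4e-04; 19.6% of 31-base words shared), the lactate exporter Slc16a3 had 129.8 and 118 CPM in the TKO D8 libraries, against 30.3 and 23.5 CPM in the TKO D6 libraries (log2 fold change 2.19, SE 0.31, adjusted p = 1.3e-05), and Pdk1, which keeps pyruvate from the mitochondrion, had 106 and 94.5 CPM in the TKO D8 libraries, against 26 and 22.9 CPM in the TKO D6 libraries (log2 fold change 2.03, SE 0.13, adjusted p = 1.7e-09). The D8 libraries were above the D6 libraries in each case. WT Slc16a3 and Ldha were lower (-1.20 and -0.80), and the differences between the steps were 3.39 and 1.91 (adjusted p = 2.1e-05 and 3.3e-05). Of 20 cholesterol synthesis genes, 13 were higher and none lower, and in WT none was higher and 5 lower. Of 21 genes of the integrated stress and unfolded protein responses, 12 were higher and none lower, including the amino acid transporter Slc7a5 (0.93) and the serine synthesis enzyme Psat1 (0.74). The steps differed further upward in TKO for 17 glycolytic, 15 cholesterol and 7 stress genes, and the other way for 4, 0 and 1.

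Other pathways were mixed. Wnt genes were higher for 10 of 27 and lower for 7: the ligand Wnt8a had 3.11 and 5.33 CPM in the TKO D8 libraries, against 0.435 and 0.316 CPM in the TKO D6 libraries (log2 fold change 3.47, SE 0.38, adjusted p = 7.8e-07), Rspo1 and Notum were higher by 2.15 and 1.90, and the antagonists Sfrp1 and Sfrp2 were lower, with log2 changes of -1.76 and -1.0. In the Bmp and Tgfb list 9 of 22 were lower and 5 higher, or 3 higher without TKO D6 replicate 2. The Id genes, direct Bmp targets that block differentiation factors, were lower, with Id3 at 25.3 and 29.0 CPM in the TKO D8 libraries, against 96.6 and 100.3 CPM in the TKO D6 libraries (log2 fold change -1.86, SE 0.11, adjusted p = 6.9e-10), Id4 at -1.78, Id1 at -1.11 and Id2 at -0.92. Shh genes were lower for 8 of 14 and higher for 2, with 4 lower without TKO D6 replicate 1 and 5 without either TKO D8 replicate, and the receptor Ptch1 was at -0.75 and the co-receptor Boc at -1.45. Of 16 retinoic acid genes, 5 were lower and 5 higher, or 3 higher without TKO D8 replicate 2. The binding protein Crabp2 had 70.7 and 76.8 CPM in the TKO D8 libraries, against 294 and 348 CPM in the TKO D6 libraries (log2 fold change -2.12, SE 0.12, adjusted p = 3.6e-10), and the receptor Rarg was higher, with 64.6 and 59.3 CPM in the TKO D8 libraries, against 27.9 and 20.5 CPM in the TKO D6 libraries (log2 fold change 1.35, SE 0.15, adjusted p = 1.2e-06), against a WT change of -2.16 (difference 3.51, adjusted p = 5.0e-09). Interferon response genes were higher for 7 of 20 and lower for 5, or 4 higher without TKO D8 replicate 2 or TKO D6 replicate 2, with Bst2, a membrane antiviral protein, at 56.7 and 54.3 CPM in the TKO D8 libraries, against 29.0 and 17.7 CPM in the TKO D6 libraries (log2 fold change 1.24, SE 0.15, adjusted p = 2.4e-06). Of 6 histone genes tested, 2 were higher and 3 lower, and 0 were higher without TKO D8 replicate 1 and 1 without TKO D8 replicate 2 or TKO D6 replicate 1. Among them stood the linker histone H1f0 at -0.92.

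The step was set beside what the same genes had done earlier in TKO. Genes were grouped by TKO D4 against TKO D0, whose 4 libraries take no part in the D6 to D8 step. In that comparison 6380 genes were higher (34.4% of those tested) and 5957 lower (32.1%). Of the 5957 that had been lower at D4, 2592 (43.5%) were higher at TKO D8 than at D6 and 684 (11.5%) lower. Of the 6380 that had been higher at D4, 918 (14.4%) were higher at D8 and 2940 (46.1%) lower. The median step was 0.26 in the first class and -0.23 in the second, and 0.11 in the 6218 genes that had not passed. Genes that had been lower by at least 8-fold, 876 in all, had a median step of 1.30, with 443 (50.6%) higher and 20 (2.28%) lower. The WT step divided by the same TKO classes was 27.1% higher and 32.9% lower in genes that had been lower at D4, and 28.1% higher and 35.9% lower in genes that had been higher. Among the 876 genes of the 8-fold class, 33.8% were higher and 5.02% lower in WT, with a median of 0.82.

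**Figure D5:**
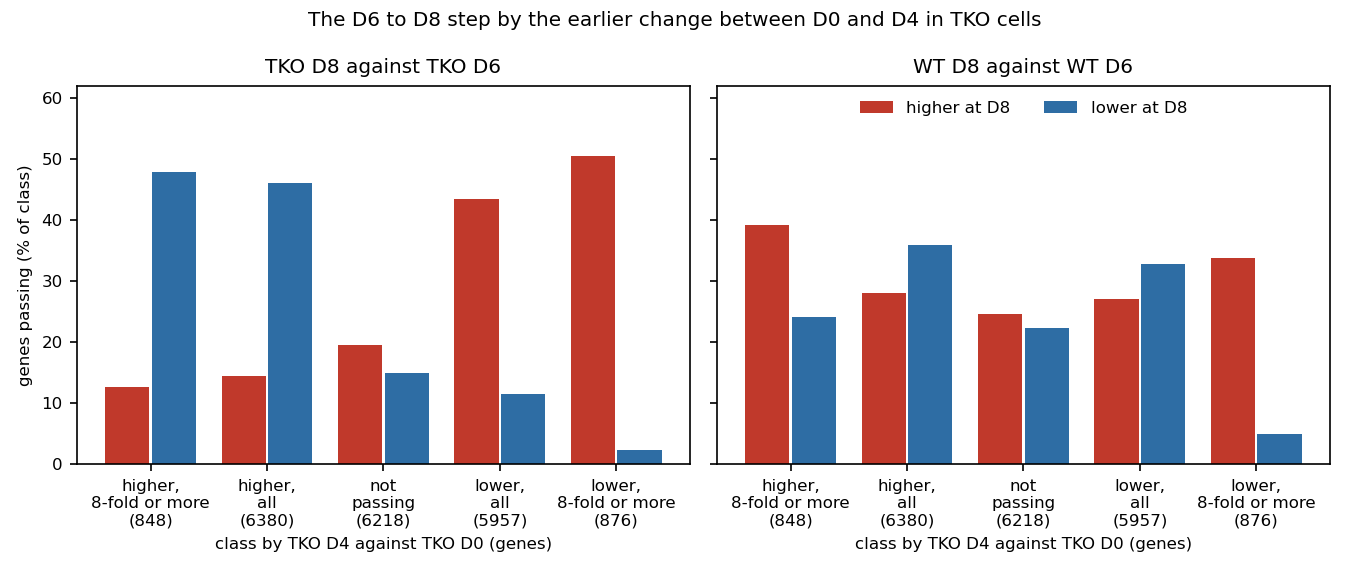
Share of genes that were higher (red) or lower (blue) at D8 than at D6 in TKO (left) and in WT (right), in percent of each class, where classes come from TKO D4 against TKO D0 and the number of genes is in brackets. In TKO, 43.5% of the genes that had been lower at D4 are higher at D8, and 46.1% of those that had been higher are lower.

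Distances between libraries were measured as the root mean square log2 difference over all genes tested. This was 0.42 between the TKO D8 replicates and 0.45 between the TKO D6 replicates. TKO D8 libraries lay 0.83 to 0.88 from TKO D6, 1.01 to 1.04 from TKO D4, 1.22 to 1.27 from TKO D2 and 1.5 to 1.52 from TKO D0. TKO D6 libraries lay nearer to TKO D4, at 0.88 to 0.96, and farther from the days before it, at 1.53 to 1.62 from TKO D2 and 1.72 to 1.79 from TKO D0. The distance to WT D8 was 1.33 to 1.38 for TKO D8 and 1.11 to 1.17 for TKO D6, so the later TKO libraries were the farther from it. Of the 709 genes at least 2-fold higher with 5 CPM or more at TKO D8, 44.9% had their highest earlier mean at D2, 48.5% at D0 and 6.63% at D4, against 26.9%, 34.7% and 38.4% of all genes tested. Of the 471 genes at least 2-fold lower with 5 CPM or more at TKO D6, 87.9% had their highest earlier mean at D4. TKO D8 stood above D4 for 682 of the 709, above D2 for 237 and above D0 for 287. Over all 18555 genes tested these counts were 9569, 9791 and 9728. The 709 were selected for being higher at TKO D8 than at TKO D6, and the 471 for being lower. TKO D4 was the earlier day nearest to TKO D6. The shares by day of the highest earlier mean, and the high count above D4, are therefore partly built in.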

How the data were processed

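Poly(A) RNA from 20 libraries of 10 groups (WT and TKO, 5 days, 2 biological replicates each) was quantified per transcript. Per the submitters' processing notes the authors used Trim Galore 0.6.2 and kallisto with GRCm38. Per the file headers the deposited tables hold, for each of 119414 transcripts, a length, an effective length, an estimated count and TPM. The deposited TPM values, the authors' estimated counts scaled by effective length and depth, served only for a length-scaled alternative.

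Estimated counts were summed per gene by transcript identifier (116728 of 119414 matched, with unmatched transcripts holding 0.943% to 1.10% of the counts of a library) and rounded. Counts were normalised by TMM, filtered with filterByExpr on the 10 groups and fitted in edgeR 4.0.16 (R 4.3.3) by quasi-likelihood with all 20 libraries sharing 1 estimate of spread (common biological coefficient of variation 0.0689, 10 residual degrees of freedom). Contrasts were TKO D8 against TKO D6, WT D8 against WT D6, the difference between them, and TKO D4 against TKO D0. The code was tested on simulated data. Depth was 26015282 to 38074768 estimated counts a library.

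Genes were named by rule: 28 markers, the 12 highest and 12 lowest changes among genes that passed with 5 CPM in a group and no overlap of libraries, up to 5 members with the widest change in each of 40 gene lists, and the 8 highest and 8 lowest differences between the steps. Other list members were named after their values were seen, to complete a count or as defining markers. The comparison, its gene lists and the rule were chosen with earlier results of these data known. The GENCODE vM21 transcripts gave, for each gene, the percentage of distinct 31-base words that another gene also holds. Alternatives were RLE scaling, no filter, the replicate block, length-scaled TPM counts, fewer libraries, protein-coding genes, genes with under 10% shared words, DESeq2 1.42.0 and other thresholds. Values of some genes that the rule names are not reported here.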

Additional observations from a re-analysis of the deposited data

Results flagged for a closer look

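The D6 to D8 step differed between TKO and WT, by the edgeR test of the difference itself, for 9258 genes. Of these, 1579 were higher at D8 in TKO and lower in WT, 33.4% of the genes higher in TKO, beside 30.4% of all genes lower in WT. Another 1057 were lower in TKO and higher in WT, 23.2% of the genes lower in TKO, beside 26.6% of all genes higher in WT. Neither share stands far from that of all genes. Groups of 2 libraries allow no outlier test.

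Among pluripotency and epiblast genes the log2 difference, TKO step minus WT step, was 1.90 for Pou5f1, 0.25 for Sox2, 1.31 for Zfp42, 1.77 for Utf1, 4.16 for Dppa4, 0.96 for Otx2 and 2.27 for Dnmt3b, while Esrrb (-1.03) and Klf4 (-1.06) gained more in WT. The differences for Nanog, Fgf5 and Tdgf1 did not pass. Neural genes differed the other way, with -0.49 for Sox1, -1.10 for Pax6, -0.92 for Nes, -1.91 for Hes5, -1.58 for Neurog2, -2.64 for Tubb3 and -3.58 for Dcx. Among markers of other cells the differences were 1.5 for T, -2.25 for Sox17, -0.66 for Krt8 and -0.93 for Col1a1. TKO Sox17 itself did not pass.

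Among genes with counts in all 4 groups, high differences were 4.42 for Tnfsf11, 4.16 for Wt1, 3.98 for Crocc2 and 3.90 for Map7d3. Low ones were -6.40 for Slitrk1, -5.71 for Nkx1-1, -5.68 for Pmfbp1, -5.51 for Cdh8, -5.49 for Fam19a2, -5.24 for Pnmal1 and -5.11 for Gria2. Without TKO D6 replicate 1 the difference for Slitrk1 was -4.36 (adjusted p = 0.10), and without WT D6 replicate 1 that for Wt1 was 2.76 (adjusted p = 0.063). Xlr5a, Xlr5b and Xlr4b each had a WT group at 0 counts. Their fitted differences of 6.76, 6.40 and -5.52 depend on the prior count of the fit, are no fold or bound, and are not ranked with the others. That of Xlr4b was -0.48 (adjusted p = 1.00) without WT D8 replicate 2. Of the other 186 genes named by rule, 121 differed, 54 further upward in TKO and 67 further downward.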

How the results depend on the processing

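Requiring a change of at least 2-fold beside the adjusted p reduced the genes passing to 2538 for the TKO step, 3617 for the WT step, 3841 for the difference between the steps and 5974 for TKO D4 against TKO D0. Leaving out each library in turn gave 7459 to 7752 genes for the TKO step, 8938 to 9536 for the WT step and 8244 to 8777 for the difference. Under the other alternatives the count for the TKO step ranged between 7067 (adjusted p under 0.01) and 9557 (libraries of D4 to D8 alone), with 8527 by DESeq2 and 7737 with length-scaled TPM counts. With the replicate number as a block it was 9227, with 10539 for the WT step and 9218 for the difference. Same-numbered libraries did not deviate together (correlations of deviations from -0.014 to 0.041). The labels do not say whether equal numbers share a culture, and these correlations cannot decide it. Among the genes passing in the TKO step under both settings, signs were kept under every alternative tried except length-scaled TPM counts, where 7427 of 7429 kept theirs.

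Sox17, which did not pass in the TKO step, changed sign to -0.28 without TKO D8 replicate 2 (adjusted p = 0.48) and reached 0.49 without TKO D8 replicate 1. Nr4a2, a nuclear receptor of dopaminergic neurons that was lower at TKO D8, changed sign to 0.16 with length-scaled TPM counts (adjusted p = 0.80), and the cause was not tested. With 2 libraries a group, changes of genes under about 1 CPM are known only roughly.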

Other observations

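A few genes took an unusual share of the TKO libraries on both days. Slc38a6, an amino acid transporter gene, averaged 14889 ± 120.1 CPM at TKO D8, against 12115 ± 269 CPM at TKO D6 (SD, n = 2 each; log2 fold change 0.30, adjusted p = 0.034 by edgeR), and its means were 204 CPM at WT D8 and 198 CPM at WT D6. D10Wsu102e averaged 13996 ± 270.4 CPM at TKO D8, against 9440.0 ± 43.3 CPM at TKO D6 (log2 fold change 0.57, adjusted p = 1.2e-07), with 455 CPM at WT D8 and 444 CPM at WT D6. Rab3gap1, a subunit of a Rab GTPase regulator, averaged 4202 ± 162 CPM at TKO D8, against 3132 ± 170.0 CPM at TKO D6 (log2 fold change 0.42, adjusted p = 1.6e-05), with 64.6 CPM at WT D8 and 57.9 CPM at WT D6. In TKO stem cells Slc38a6 averaged 782 ± 29.7 CPM and D10Wsu102e 2487 ± 15.3 CPM. Of the 31-base words of the 3 genes, in the order given, 39.2%, 12.3% and 10.1% also occur in other genes, so these levels are uncertain. These genes were chosen after their values were seen, as members of the 10 with most counts at TKO D8. Noct, another of those 10, averaged 13186 ± 8.28 CPM at TKO D8, against 11741 ± 66.5 CPM at TKO D6. Its step did not pass (log2 fold change 0.17, adjusted p = 0.19 by edgeR). Its means were 227 CPM at WT D8 and 224 CPM at WT D6, and 34.2% of its 31-base words are shared.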
